A study of Caenorhabditis elegans with 18 samples.

Results

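The genes described here are 89 genes of the nematode Caenorhabditis elegans that carry only a sequence name, such as F15D4.5, which is the name of the sequenced clone followed by a number. They were chosen from small RNA counts in immunoprecipitates (IPs) of the Argonaute WAGO-1. A gene entered when its mean level in the 3 WAGO-1 IPs was at least 20 CPM, that is reads of the gene per 1000000 reads counted on genes and intervals, and at least 4 times its mean in the 3 IPs of WAGO-1 from animals with a dpf-3 deletion. Of 20134 genes in the table, 8937 had no other name, 936 of these reached 20 CPM in the WAGO-1 IP, and 89 also met the ratio. The same thresholds in the opposite direction were met by 212 unnamed genes. A RefSeq annotation of assembly WBcel235, the same assembly as the ce11 build of the counts, gives 3 of the 89 a class symbol, namely Y76B12C.8 as nssp-37, K08D12.4 as pugs-4 and VH15N14R.1 as smrn-1.

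WAGO-1 and WAGO-3 are worm-specific Argonautes that act mainly in the germ line. They carry 22G RNAs, short RNAs that begin with a 5' triphosphate and are copied by RNA-dependent RNA polymerases from the transcripts they silence. A gene rich in 22G RNAs held by these Argonautes is read as a target of this silencing. A high level in total RNA alone does not show which Argonaute holds the small RNAs. dpf-3 encodes a dipeptidyl peptidase of the family that trims the amino terminus of proteins, and the study addressed how a protease that processes Argonautes bears on the small RNAs they hold. Counts in such libraries are not a level of messenger RNA.

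The study had 6 groups of 3 libraries, made from whole animals at the L4 stage, the last larval stage, grown at 15 °C on NA22 bacteria. The genotypes were 1xFLAG::WAGO-1, 1xFLAG::WAGO-1 dpf-3{delta} and 1xFLAG::WAGO-3, so every group carried a FLAG tag on an Argonaute, and each genotype gave an anti-FLAG IP and an input, the total RNA of the extract before the IP. Inputs went through a small RNA purification column and IPs did not. All RNA was treated with a 5' polyphosphatase, and libraries were built with a microRNA kit. Each genotype is represented by a single label, so a genotype and the history of its strain cannot be told apart, and no IP from untagged animals was analysed here. The labels do not say whether the letters A, B and C stand for separate cultures, so p-values measure the spread between these libraries, which may be technical.

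Replicate inputs differed little beyond counting error, with a chi-square per degree of freedom from 1.05 to 1.44, and replicate IPs, which were deeper, from 1.24 to 8.28. Counts in features ranged from 2206087 to 5649896 in the IPs, from 209731 to 517278 in the WAGO-1 and WAGO-3 inputs, and from 88761 to 121874 in the deletion inputs, which were the shallowest. Small RNAs of dpf-3 itself stood at 8.21 to 26.1 CPM in the deletion inputs (6 reads in all), 30.9 to 52.5 CPM in the WAGO-1 inputs and 32.7 to 70.6 CPM in the WAGO-3 inputs. These reads need not come from the deleted stretch and were not taken as a check of the labels.

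The levels that chose the genes are given as a description. The ratio of WAGO-1 IP to deletion IP ran from 4.03 to 61.7 over the 89 genes, with a median of 7.23. The 89 genes together took 5.57% to 6.09% of feature counts in the WAGO-1 IPs and 0.792% to 0.811% in the deletion IPs. Each of the 89 genes still had reads in each deletion IP, so their small RNAs were lower there and not absent. In the contrast of the rule, 31.8% of all 11648 features tested were lower in the deletion IP, and nothing is read from that share here.

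F15D4.5 (chromosome II, 13245376 to 13247774) was the highest of the 89, at 16060, 14230 and 14240 CPM in the WAGO-1 IPs and 3159, 2989 and 2946 CPM in the deletion IPs. It alone gave 25.8% of the summed level of the 89 genes in the WAGO-1 IP, and the 12 highest gave 66.6%. At the other end of the ratio, K08D12.4 (chromosome IV, 1707296 to 1708691) stood at 64.6, 57.4 and 60.5 CPM in the WAGO-1 IPs and 1.06, 1.16 and 0.734 CPM in the deletion IPs. F59C12.4 (chromosome X, 16602473 to 16602622), whose annotated span of 150 bases was the shortest of the 84 genes with a position, stood at 2946, 2226 and 2228 CPM and at 66.4, 74.2 and 74.7 CPM.

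The thresholds cut through a continuous range. F53G12.8 at a ratio of 4.03 and F58D12.1 at 4.06 were just inside the ratio, and the copy of F58D12.5 with the identifier WBGene00011626 at 3.97 and T03D3.5 at 3.94 were just outside it. F58D12.1 at 20.8 CPM and ZC190.10 at 21.7 CPM were just inside the minimum level. C34E11.2 at 18.2 CPM and B0041.11 at 17.1 CPM were just below it, with ratios of 4.36 and 4.21. With TMM-scaled CPM in the rule, 247 unnamed genes would enter in place of 89.

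The first question was whether small RNAs of these genes were also lower in total RNA when dpf-3 was deleted, which the inputs answer with libraries that the rule did not use. Inputs were taken from the extracts before the IP, so an input and an IP may come from the same animals. The share of feature counts on the 89 genes was 4.53% to 4.62% in the WAGO-1 inputs and 0.547% to 0.672% in the deletion inputs. In the WAGO-3 inputs it was 4.49% to 4.85%, so the deletion inputs stood apart from both other sets.

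Of the 89 genes, 86 were lower and none was higher in the deletion input than in the WAGO-1 input (edgeR quasi-likelihood test, Benjamini-Hochberg adjusted p under 0.05 over 11648 features). Among all features tested, 14.9% were lower and 8.65% were higher. The median log2 fold of the 89 genes was -3.996, against 0.02 over all features tested. When libraries were scaled to their total counts in place of TMM factors, 84 were lower and none was higher, with 10.1% of all features lower and 29.3% higher. On that scale the median of the 89 was -3.24, or -2.91 with the genes that had no read in the deletion inputs set to the bound that 3 reads allow, and the median of all features was 0.79. All 89 folds were negative on both scales. All 89 genes passed the filter on low counts, and they did so through their level in the WAGO-1 IP, which was part of the rule.

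F15D4.5 was at 10250, 10130 and 10200 CPM in the WAGO-1 inputs and at 2198, 2479 and 2700 CPM in the deletion inputs, a log2 fold of -2.80 ± 0.08 (SE, edgeR adjusted p = 1.49e-64, n = 3 per group). All 3 deletion inputs lay far below all 3 WAGO-1 inputs. It kept the highest level of the 89 in the deletion inputs, where it made up 40.7% of their summed level. C38D9.2 (chromosome V, 17567150 to 17571739), a locus known for abundant 22G RNAs, went from 4191, 4110 and 3817 CPM to 356, 338 and 460 CPM. Its log2 fold was -4.12 ± 0.11 (SE, edgeR adjusted p = 5.2e-68). Scaled to total counts, the log2 folds of F15D4.5 and C38D9.2 were -2.04 and -3.37.

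Some other genes had larger relative differences than these. F59C12.4 was at 2189, 2119 and 2044 CPM in the WAGO-1 inputs and 26.1, 56.3 and 90.3 CPM in the deletion inputs (log2 fold -5.93 ± 0.18 SE, edgeR adjusted p = 6.43e-61). C46G7.5 (chromosome IV, 6010192 to 6011645) went from 1035, 986 and 992 CPM to 26.1, 22.5 and 49.2 CPM (log2 fold -5.64 ± 0.26 SE, edgeR adjusted p = 2.92e-43). In both genes all deletion inputs lay far below all WAGO-1 inputs. K01A11.3 (chromosome III, 3447016 to 3452613), named here after its values were seen, went from 839, 711 and 773 CPM to 17.4, 11.3 and 24.6 CPM, a log2 fold of -6.12 ± 0.26 (SE, edgeR adjusted p = 1.03e-46).

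The remaining genes among the 12 highest of the WAGO-1 IP moved the same way. Y76B12C.8 (chromosome IV, 1979988 to 1980357) was at 920, 957 and 911 CPM in the WAGO-1 inputs and 122, 113 and 107 CPM in the deletion inputs. ZC15.3 (chromosome V, 20303588 to 20304908) was at 1354, 1143 and 1088 CPM against 209, 124 and 164 CPM. F41G4.7, Y71A12B.11 and Y53F4B.17 had log2 folds of -4.33, -4.48 and -5.02, and none of these 5 genes had overlapping groups. Y53F4B.17 lies beside Y53F4B.12, which had 3 reads in the deletion inputs and 69 in the WAGO-1 inputs, a ratio of 6.92 (95% interval 2.27 to 34.4).

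Among genes of lower level, F23B12.4 (chromosome V, 14441141 to 14445349) was at 334, 282 and 346 CPM in the WAGO-1 inputs and had 2 reads in the 3 deletion inputs together. The ratio of WAGO-1 to deletion input was 51.0, with an exact 95% interval from 14.01 to 423 that covers counting error only. This gene overlaps dlat-1, which encodes a subunit of the pyruvate dehydrogenase complex. How reads of overlapping genes were assigned was not given, so its counts are uncertain. Y38F2AL.12 (chromosome IV, 2316573 to 2318673) likewise had 230 reads in the WAGO-1 inputs and 2 in the deletion inputs, a ratio of 34.6 (95% interval 9.47 to 287).

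In the deletion inputs, 8 of the 89 genes had no read and 27 had at most 3. C16C8.20 (chromosome II, 3446947 to 3448168) was at 215, 180 and 250 CPM in the WAGO-1 inputs and at 0 in each deletion input, which is at least 22.8-fold lower when the floor is 3 reads over the group (edgeR adjusted p = 8.05e-22). On the same floor K08D12.4 was at least 7.22-fold lower, from 66.8, 61.9 and 73.1 CPM. Y48G1C.6 (chromosome I, 84990 to 86293) was at least 7.12-fold lower, from 71.5, 67.7 and 59.03 CPM. At these depths the deletion inputs cannot show how much of these small RNAs remained.

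The genes that were not called had few reads. B0261.8 (17 reads in the WAGO-1 inputs against 2), F58D12.1 (11 against 2) and W06D11.1 (22 against 3) had edgeR adjusted p-values of 0.0705, 0.321 and 0.0636 and were not called. For F58D12.1 the ratio of WAGO-1 to deletion input was 1.66, with a 95% interval from 0.361 to 15.4, so these counts do not separate a large fall from no fall. Y71F9B.13 (15 against 1) and ZC190.10 (15 against 1) were lower at edgeR adjusted p-values of 0.0403 and 0.0463 and were no longer called with total counts as the scaling, at 0.137 and 0.149. The call of Y71F9B.13 was also lost without deletion input A or B or WAGO-1 input B or C (adjusted p from 0.0607 to 0.185), and that of ZC190.10 without deletion input A or B or any 1 of the WAGO-1 inputs (0.0523 to 0.216).

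The inputs differed in ways other than at these genes. In the deletion inputs 79.9% to 82.5% of counted reads fell on no feature, against 71.1% to 76.6% in the WAGO-1 inputs and 68.6% to 74.8% in the WAGO-3 inputs. Small RNAs of 6 germ line genes (pgl-1, pgl-3, glh-1, glh-4, gld-1 and deps-1), all of them detected, summed to 2552 to 2873 CPM in the deletion inputs, 1096 to 1186 CPM in the WAGO-1 inputs and 1180 to 1466 CPM in the WAGO-3 inputs. Those of 5 sperm genes, all detected too, summed to 1584 to 2197 CPM, 595 to 801 CPM and 785 to 1148 CPM in the same order. The 3 markers of muscle summed to 78.2 to 147 CPM, 105 to 141 CPM and 47.1 to 98.1 CPM, with myo-3 without a read in the deletion inputs and myo-3 and unc-15 without one in the WAGO-3 inputs. Markers of neurons (3 of 3 detected) summed to 69.5 to 90.1 CPM, 19.7 to 44.5 CPM and 26.2 to 47.1 CPM, and those of the intestine (3 of 3) to 16.4 to 43.4 CPM, 9.67 to 23.8 CPM and 31.5 to 42.4 CPM. The part of depth, of tissue make-up and of the other features' levels in the result was not tested, and in whole animals fewer germ cells and fewer small RNAs per cell cannot be told apart.

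**Figure D1:**
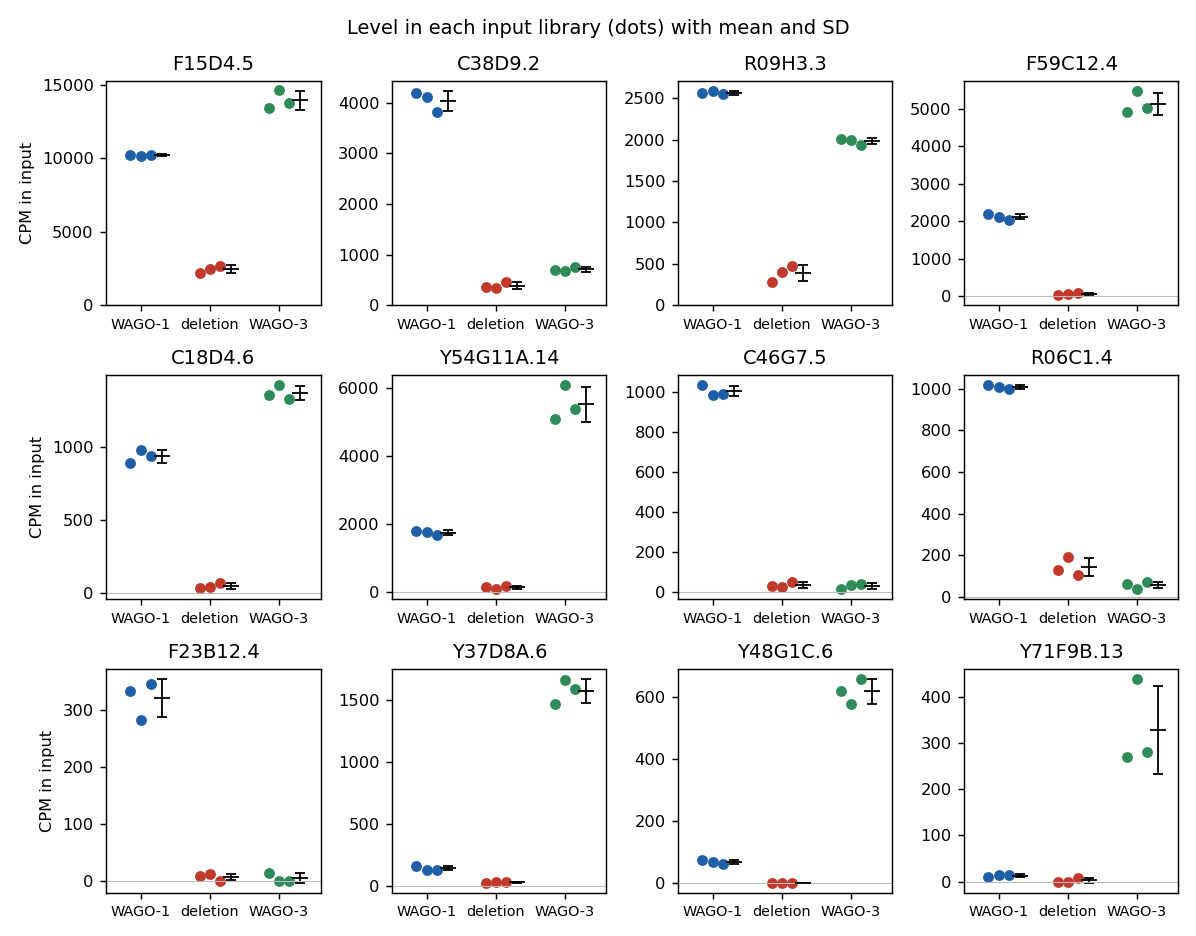
Level in CPM (y axis, scaled for each gene) of 12 of the 89 genes in each input library (dots) by genotype (x axis), with the mean and SD of the 3 libraries beside them. In every panel the deletion inputs lie below the WAGO-1 inputs, while the WAGO-3 inputs lie above them for F59C12.4 or Y37D8A.6 and far below them for C46G7.5 or F23B12.4.

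The WAGO-3 strain has dpf-3 intact and gives another set of inputs to set the deletion against. Of the 89 genes, 55 were lower and none was higher in the deletion input than in the WAGO-3 input, with 9.5% of all features lower and 2.73% higher (edgeR). The median log2 fold was -2.69, against 0.03 over all features tested. With total counts as the scaling, 44 were lower and 4 were higher, with 6.52% of all features lower and 22.8% higher. In plain CPM, 52 had all 3 deletion inputs below all WAGO-3 inputs and 4 had them above, against 9.13% and 30.1% of all features. This comparison shares its deletion inputs with the one above, so the 2 are not independent. In plain CPM, all 3 deletion inputs lay below all 6 other inputs for 50 of the 89 genes, against 6.08% of all features tested.

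F59C12.4 was at 4920, 5473 and 5016 CPM in the WAGO-3 inputs, so the log2 fold to the deletion inputs was -7.19 ± 0.17 (SE, edgeR adjusted p = 2.61e-75). Y54G11A.14 (chromosome II, 14318158 to 14321018) was at 5071, 6075 and 5372 CPM in the WAGO-3 inputs, 1798, 1750 and 1672 CPM in the WAGO-1 inputs and 139, 90.1 and 164 CPM in the deletion inputs. Its fold to the WAGO-3 inputs was -6.09 ± 0.14 on the log2 scale (SE, edgeR adjusted p = 1.39e-75). For both genes the 3 groups did not overlap, in the order deletion, WAGO-1, WAGO-3. Y48G1C.6 had 453 reads in the WAGO-3 inputs and none in the deletion inputs, at least 66.5-fold lower.

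At other genes the deletion input and the WAGO-3 input were both low and were not called apart. C46G7.5 stood at 14.1, 32.7 and 40.5 CPM in the WAGO-3 inputs, which overlaps its 22.5 to 49.2 CPM in the deletion inputs (log2 fold -0.55 ± 0.58 SE, edgeR adjusted p = 0.642). F23B12.4 had 3 reads in the WAGO-3 inputs and 2 in the deletion inputs. F55B11.6 (chromosome IV, 14416262 to 14417228) was at 1016, 911 and 922 CPM in the WAGO-1 inputs, 52.1, 22.5 and 140 CPM in the deletion inputs and 47.1, 55.6 and 58.5 CPM in the WAGO-3 inputs. Its last 2 groups overlapped (log2 fold -0.23 ± 0.38 SE, edgeR adjusted p = 0.798).

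A few genes were called higher in the deletion input on 1 scale only, with the same sign on both. R06C1.4 (chromosome I, 11930765 to 11931757), was at 130, 192 and 107 CPM in the deletion inputs and 61.2, 39.3 and 72.1 CPM in the WAGO-3 inputs. It was higher in the deletion inputs with total counts (log2 fold 1.33 ± 0.30 SE, edgeR adjusted p = 0.000266) and was not called with TMM factors (0.58 ± 0.30, adjusted p = 0.263). Y102A5C.36, H25P19.1 and C50F4.6 were the other 3 called higher with total counts only, at log2 folds of 1.26, 1.47 and 2.64. C50F4.6 overlaps the histone gene his-41, a member of a family of near-identical genes, so its counts are uncertain.

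Between the strains with dpf-3 intact, the 89 genes went in both directions. In the WAGO-3 input 22 were higher and 52 were lower than in the WAGO-1 input, with 5.73% of all features higher and 8.01% lower (edgeR). The counts of calls were the same with total counts as the scaling, where 5.97% of all features were higher and 7.87% lower. The median log2 fold was -1.43, against 0.09 over all features tested. In plain CPM, 35 genes had a WAGO-1 input of at least 4 times the WAGO-3 input, 6 had the reverse, and 48 were between these values.

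The genes that were higher in the WAGO-3 input included some that were near the bottom of the WAGO-1 input. Y71F9B.13 (chromosome I, 2776364 to 2778719) was at 268, 438 and 279 CPM in the WAGO-3 inputs and at 9.54, 15.5 and 14.1 CPM in the WAGO-1 inputs (log2 fold 4.58 ± 0.26 SE, edgeR adjusted p = 1.03e-33). Y37D8A.6 (chromosome III, 12856833 to 12857911) was at 1474, 1668 and 1590 CPM against 162, 132 and 132 CPM (3.49 ± 0.12, adjusted p = 3.16e-56). The groups were far apart at both genes. B0261.8, Y48G1C.6, Y53F4B.12 and T04D1.2 were also higher, with log2 folds of 3.49, 3.20, 3.06 and 1.95.

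The genes that were lower included some of the highest of the WAGO-1 input. C38D9.2 was at 692, 674 and 757 CPM in the WAGO-3 inputs, a log2 fold of -2.53 ± 0.09 to its WAGO-1 inputs (SE, edgeR adjusted p = 1.19e-55). C46G7.5 had a log2 fold of -5.09 ± 0.21 (SE, edgeR adjusted p = 2.98e-46) and R06C1.4 one of -4.20 ± 0.16 (adjusted p = 1.04e-49). F23B12.4 had 339 reads in the WAGO-1 inputs and 3 in the WAGO-3 inputs, a ratio of 77.2 (95% interval 26.2 to 376). C16C8.20 had 227 against 1, a ratio of 155 (95% interval 27.6 to 6156). For ZC190.10, with 15 reads in the WAGO-1 inputs, none was found in the WAGO-3 inputs, at least 3.42-fold lower.

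Some genes differed little between these strains. F15D4.5 was 13400, 14630 and 13770 CPM in the WAGO-3 inputs, a log2 fold of 0.44 ± 0.07 to the WAGO-1 inputs (SE, edgeR adjusted p = 3.98e-08). C18D4.6 (chromosome V, 17535586 to 17538375) was at 1351, 1420 and 1324 CPM against 892, 980 and 933 CPM, a log2 fold of 0.52 ± 0.09. R09H3.3 (chromosome X, 1667019 to 1668848) was at 2010, 1999 and 1941 CPM against 2560, 2592 and 2547 CPM, a log2 fold of -0.39 ± 0.08. None of these 3 genes had overlapping groups, although their folds were small beside those to the deletion inputs. F15D4.6, next to F15D4.5, was at 730 ± 4.17 CPM in the WAGO-3 inputs and 802 ± 12.9 CPM in the WAGO-1 inputs (SD, n = 3), and was not called (log2 fold -0.16 ± 0.10, edgeR adjusted p = 0.355).

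**Figure D2:**
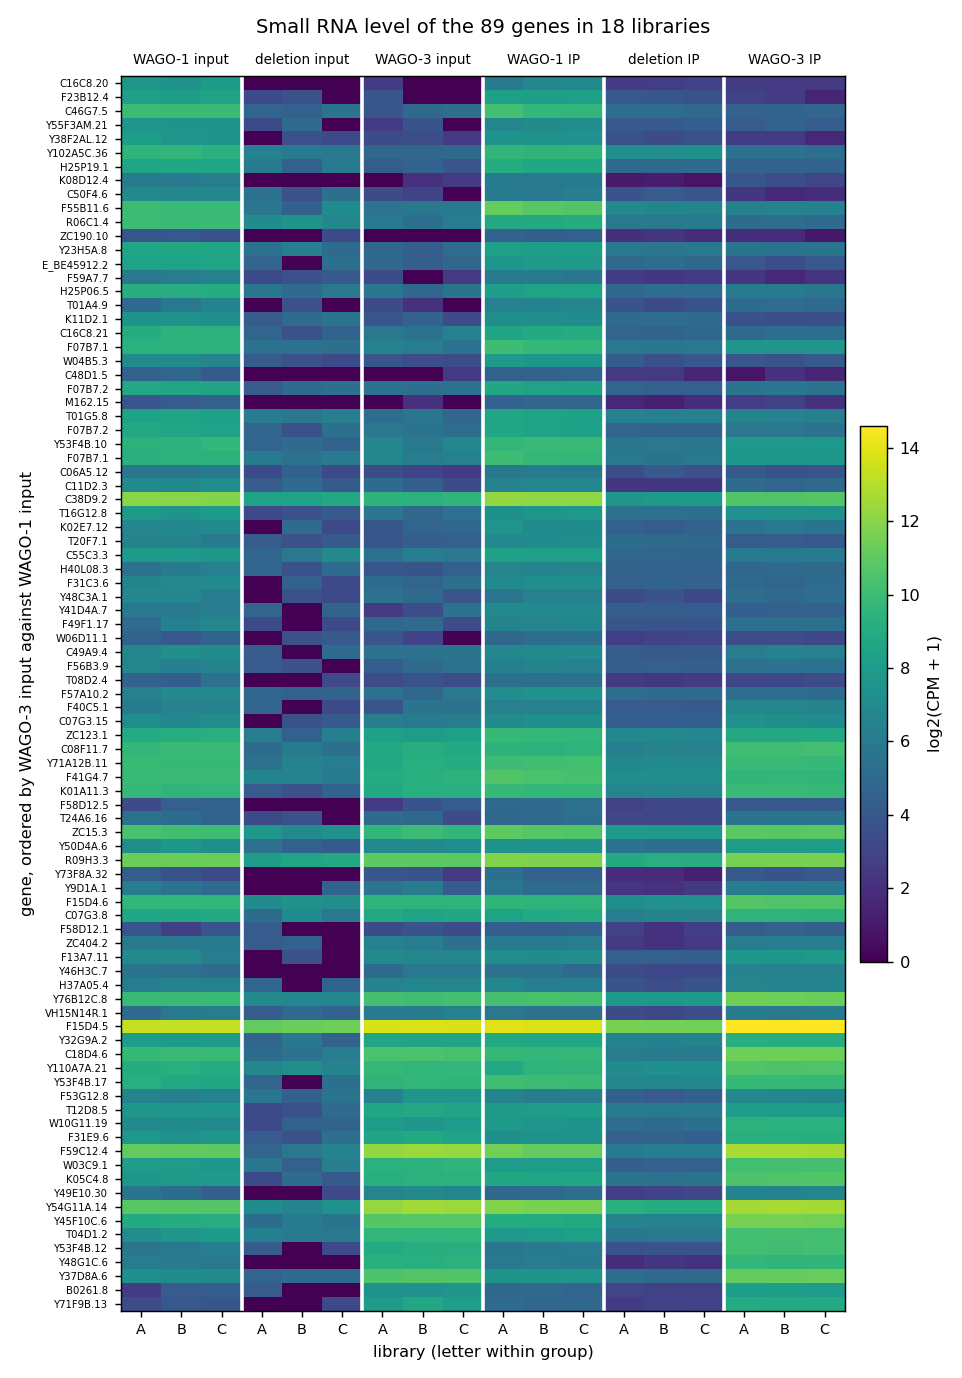
Colours give log2(CPM + 1) of the 89 genes (rows, ordered by mean WAGO-3 input against mean WAGO-1 input on this scale, lowest at the top) in the 18 libraries (columns A to C in 6 groups). With few exceptions among weak genes the deletion libraries are darker than the WAGO-1 libraries of the same kind, whereas the WAGO-3 libraries pass from darker than WAGO-1 at the top to brighter at the bottom.

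The WAGO-3 IPs hold the small RNAs recovered with the FLAG antibody from the WAGO-3 strain. Without an IP from untagged animals, background in these IPs was not measured. Inputs but not IPs went through a small RNA column, so a difference between IP and input may also reflect preparation. The 89 genes took 7.63% to 7.67% of feature counts in the WAGO-3 IPs and 4.49% to 4.85% in the WAGO-3 inputs. With TMM factors 85 genes were higher and none was lower in the WAGO-3 IP than in its input, with 34.8% of all features higher and 26.8% lower (edgeR), and the median log2 fold was 2.21 against 0.23 over all features. With total counts 48 were higher and 5 were lower, with 10.1% of all features higher and 52.2% lower, and the medians were 0.57 and -1.40. In plain CPM, 55 had all 3 IPs above all 3 inputs and 5 had them below, against 14% and 48.8% of all features. The 2 scalings set the zero of this contrast 1.63 apart on the log2 scale, so the count of genes called higher depends on the scaling, while the median of the 89 stood above that of all features on both.

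In plain CPM the ratio of WAGO-3 IP to WAGO-3 input had a median of 1.52 over 88 of the 89 genes, ZC190.10 having no read in the input. The quartiles were 1.16 and 2.08, and 70 genes were above 1. The same ratio had a median of 0.85 over the other unnamed genes at 20 CPM and of 0.357 over all features tested.

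F15D4.5 rose from 13400, 14630 and 13770 CPM in the WAGO-3 inputs to 24750, 24800 and 25030 CPM in the WAGO-3 IPs (edgeR log2 fold 2.47 ± 0.07 SE with TMM factors, adjusted p = 5.48e-66). Scaled to total counts its fold was 0.83 (edgeR adjusted p = 3.61e-26). C38D9.2 rose to 1597, 1610 and 1634 CPM in the IPs, with log2 folds of 2.83 and 1.19 on the TMM and total-count scales. T16G12.8 (chromosome III, 10059302 to 10059897), a gene that overlaps T16G12.12, went from 51.8, 29.4 and 45.03 CPM to 169, 171 and 178 CPM (3.71 ± 0.19 with TMM, 2.08 with total counts). The 3 genes were called on both scales, with no overlap between IP and input. T01A4.9 (chromosome I, 4468073 to 4469458), which overlaps eri-6, a gene of the endogenous RNA interference pathway, had 3 reads in the inputs and 34.3, 36.7 and 30.4 CPM in the IPs. The ratio of its IP to its input was 8.47, with a 95% interval from 2.87 to 41.3.

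The 5 genes that were lower in the WAGO-3 IP with total counts were R06C1.4, C16C8.21, T12D8.5, E_BE45912.2 and F53G12.8, and each of them was higher with TMM factors. F53G12.8 (chromosome I, 113807 to 114708) was at 84.8, 196 and 198 CPM in the inputs and 119, 113 and 105 CPM in the IPs, so its groups overlapped, and its log2 fold was 1.09 with TMM and -0.55 with total counts. The 4 not called with TMM factors were Y38F2AL.12, C50F4.6, F59A7.7 and C48D1.5, which had 1 to 6 reads in the WAGO-3 inputs together.

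Levels in the IPs followed the levels in the input of the same strain. Over the 89 genes, Spearman's rho between mean input and mean IP was 0.968 for WAGO-3, 0.971 for WAGO-1 and 0.874 for the deletion. Each of these pairs shares the strain, and an input and an IP may come from the same animals, so rho is given as a description. The genes that were low in the WAGO-3 input were thus low in the WAGO-3 IP. C46G7.5 stood at 23.2, 24.8 and 27.7 CPM there, against 2211, 2308 and 2344 CPM for Y37D8A.6.

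The ratio of IP to input for the 2 WAGO-1 strains used libraries of the rule and is given without a test. In plain CPM it had a median of 1.11 over the 89 genes in the WAGO-1 strain and of 1.27 over the 81 genes with reads in the deletion inputs. The median ratio of deletion to WAGO-1 was 0.138 in the IPs, where the rule fixes it, and 0.104 in the inputs. Between the 2 Argonautes, 34 of the 89 genes had a WAGO-1 IP of at least 4 times the WAGO-3 IP, 8 had the reverse and 47 were between.

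**Figure D3:**
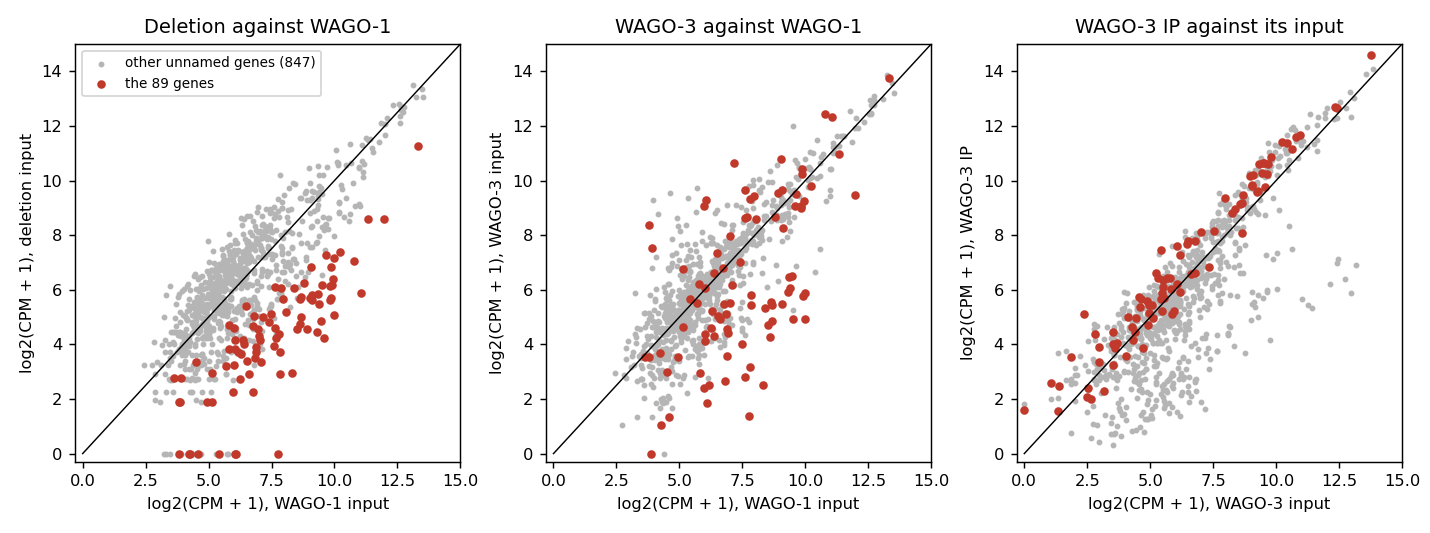
Mean log2(CPM + 1) of the 89 genes (red) and of the 847 other unnamed genes at 20 CPM or more in the WAGO-1 IP (grey), with the line of equal level, for deletion input against WAGO-1 input, WAGO-3 input against WAGO-1 input and WAGO-3 IP against WAGO-3 input. The red points lie below the line in the left panel, on both sides of it in the middle panel and mostly above it in the right panel, where 70 of 88 ratios exceed 1.

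The cut at 4 did not mark a break in the inputs. Among unnamed genes at 20 CPM or more, 86 of the 89 (96.6%) were lower in the deletion input than in the WAGO-1 input, as were 91 of 103 (88.3%) with an IP ratio from 2 to 4, 126 of 179 (70.4%) with a ratio from 1 to 2, and 87 of 565 (15.4%) with a ratio below 1 (edgeR). Against the WAGO-3 input the shares were 61.8%, 45.6%, 44.1% and 21.8%. Over all features tested the shares lower were 14.9% and 9.5%. With total counts in place of TMM factors, 84, 81, 77 and 19 genes of these bands were lower than in the WAGO-1 input, and 0, 1, 3 and 231 higher. Against the WAGO-3 input 44, 40, 59 and 63 were lower, and 4, 6, 18 and 201 higher. On that scale 10.1% and 6.52% of all features were lower, and 29.3% and 22.8% higher. Other genes past the same thresholds are set beside them. With TMM factors, of 59 with a gene name, 56 were lower in the deletion input than in the WAGO-1 input and 34 lower than in the WAGO-3 input. Of 10 listed by an identifier only, 10 and 7 were lower. Of 271 intervals past them, 266 and 103 were lower. With total counts 64 and 38 of the 69 other genes, and 255 and 77 of the 271 intervals, were lower. The differences between these sets were not tested.

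**Figure D4:**
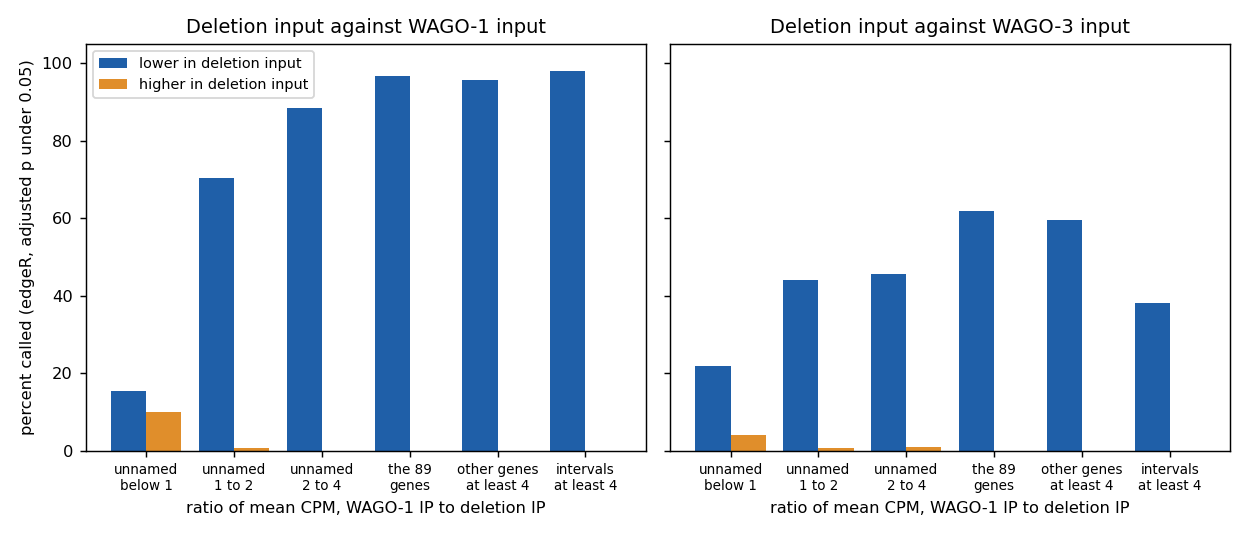
Percent of features called lower (blue) and higher (orange) in the deletion input against the WAGO-1 input (left) and the WAGO-3 input (right), for unnamed genes by their ratio of WAGO-1 IP to deletion IP and for other genes and intervals with a ratio of at least 4. Calls used TMM factors. On the left the share called lower climbs from 15.4% to 96.6% over the unnamed genes, and on the right from 21.8% to 61.8%.

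The 89 genes were spread over all 6 chromosomes. Of the 84 with a position, 24 (28.6%) lay on chromosome V, 17 (20.2%) on I, 16 (19.05%) on IV, 13 (15.5%) on II and 7 (8.33%) each on III and X. The unnamed genes at 20 CPM had 17.1% on V, 19.3% on I, 16.5% on IV, 18.3% on II, 16.9% on III and 11.9% on X. These differences were not tested. There were 12 pairs of neighbours with starts within 50 kb. The starts of 3 genes fell within 1 window of 50 kb once, on chromosome II, for F15D4.5, F15D4.6 (13249186 to 13250063) and Y48C3A.1 (13260894 to 13261201). Y53F4B.10, Y53F4B.12 and Y53F4B.17, also on chromosome II, formed a chain of 2 such pairs, 17128 and 39433 bases apart, that spans more than the window. The 3 genes of the window were lower in the deletion input than in the WAGO-1 input, with log2 folds of -2.80, -3.17 and -4.69, and their mean levels in the WAGO-1 inputs were 10190, 802 and 96.4 CPM.

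The annotation calls 82 protein coding and 2 (Y48C3A.1 and Y9D1A.1) long noncoding RNAs. The median span was 1519 bases, from 150 to 11056, against 2265 over the 917 unnamed genes at 20 CPM with a position. Per kilobase of span, the level in the WAGO-1 input ran from 1.88 to 14110 CPM with a median of 112, and the highest values belonged to F59C12.4 (14110), F15D4.5 (4249) and Y76B12C.8 (2512). Spans include introns.

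Reads of 25 of the 89 genes may be shared with a protein-coding gene that they overlap. C16C8.20 and C16C8.21 overlap gldi-6, Y48G1C.6 overlaps mtm-10 and C11D2.3 overlaps C11D2.7. The other 64 include 5 entries without a position, whose overlap could not be checked. Of these 64, 62 were lower in the deletion input than in the WAGO-1 input and 43 were lower than in the WAGO-3 input. In the WAGO-3 IP 62 were higher than in its input (edgeR, TMM factors). The shares of all features called in these directions were 14.9%, 9.5% and 34.8%. The last count depends on the scaling. Over all 89 genes it was 85 with TMM factors and 48 with total counts, where 5 were lower. The 5 entries without a position are F07B7.1 and F07B7.2 with 2 identifiers each, and F58D12.5. Their names belong to more than 1 gene identifier, so their counts may be split between copies and are uncertain. F07B7.1 with the identifier WBGene00017185 was at 653, 677 and 669 CPM in the WAGO-1 inputs, 43.4, 45.1 and 41.03 CPM in the deletion inputs and 84.8, 68.7 and 45.03 CPM in the WAGO-3 inputs.

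Small RNAs of the genes of the small RNA pathway, listed from general knowledge, are set beside the 89. Of 43 tested (44 of 45 listed were in the table, and none is among the 89), 18 were higher and 1 was lower in the deletion input than in the WAGO-1 input with TMM factors, and 35 and 0 with total counts (edgeR), where 8.65% and 29.3% of all features were higher on the 2 scales. In the WAGO-3 IP against its input 17 were higher and 13 lower with TMM factors, beside 34.8% and 26.8% of all features, and 2 and 35 with total counts, beside 10.1% and 52.2%. These are small RNAs counted at the genes of the pathway. The Argonaute hrde-1 stood at 304 ± 22.6 CPM in the WAGO-3 IP and 431 ± 75.5 CPM in the input (SD, n = 3). Its log2 fold was 1.16 with TMM factors and -0.48 with total counts, so its direction depends on the scaling. Another gene of the list, prg-1, was higher on both scales, at 2206 ± 147 CPM and 970 ± 29.8 CPM (log2 folds 2.82 and 1.17).

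Of 10 loci known for 22G RNAs, listed from earlier accounts of these data and general knowledge, all 10 were lower in the deletion input than in the WAGO-1 input with TMM factors, and 4 were lower and 3 higher with total counts (edgeR). Among all features tested 14.9% were lower with TMM factors, and 10.1% were lower and 29.3% higher with total counts. The share of the loci that was higher was near that of all features. Of these loci 4 are among the 89, namely F15D4.5, C38D9.2, C18D4.6 and R06C1.4, and their log2 folds in the deletion input against the WAGO-1 input were between -4.93 and -2.80. The other 6 (bath-45, E01G4.5, F55C9.3, F55C9.5, K02E2.6 and Y47H10A.5) had folds between -1.03 and -0.30 with TMM factors and between -0.27 and 0.47 with total counts. The 4 were chosen by their fall in the IPs of the same strains, and IP levels followed input levels. This split of the loci is therefore a description, and the list is not independent of these data. In the WAGO-3 IP against its input, 5 of these 6 were lower on both scales. Of all features 26.8% were lower there with TMM factors and 52.2% with total counts. K02E2.6, at 6908 ± 211 CPM in the WAGO-3 input, was at 83.0 ± 2.16 CPM in the WAGO-3 IP (SD, n = 3), and Y47H10A.5 at 8141 ± 118 CPM and 58.1 ± 4.63 CPM. By contrast, F15D4.5, C38D9.2 and C18D4.6 were higher in the WAGO-3 IP on both scales, as was bath-45, and R06C1.4 was higher with TMM factors and lower with total counts.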

How the data were processed

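Small RNA libraries from FLAG immunoprecipitates (IPs) and inputs of 3 genotypes, 18 libraries in all, were analysed from the authors' deposited table of raw counts per gene and per genomic interval (75393 features, 55259 of them intervals). All 18 columns were mapped to a library by their names. Per the submitters' processing notes the tools were cutadapt 2.3, Bowtie 1.2.3, SAMtools 1.9 and HTSeq 0.11.2, with build ce11. Which annotation and strand setting were used, and how multiply placed reads and molecular identifiers were handled, was not given in the sources used here. Counting without strand would mix overlapping genes.

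Rows for reads on no feature were kept out of library sizes and tests. They held 68.6% to 82.5% of counted reads in inputs and 32.5% to 38.6% in IPs. Levels are counts per 1000000 feature counts (CPM). Tests used edgeR 4.0.16 in R 4.3.3, quasi-likelihood, with TMM factors, filterByExpr (minimum count 10), 1 mean per group over all 18 libraries and Benjamini-Hochberg adjustment over 11648 features. Log2 folds are on this scale, with a standard error derived from the F statistic. TMM factors ran from 0.431 to 2.39. Relative to total counts they shifted the median log2 fold of all features by -0.77 (deletion against WAGO-1 input), -0.75 (deletion against WAGO-3 input), -0.02 (WAGO-3 against WAGO-1 input) and 1.63 (WAGO-3 IP against input). Total-count results are therefore given beside the main counts of calls. Most folds of single genes are given with TMM factors alone, whereas the CPM printed with them follow total counts. Where a group had no read, a bound uses 3 reads over the group. Intervals for ratios are exact, 95%, and cover counting error only.

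Alternatives were total counts, RLE factors, DESeq2 1.42.0, other filters, genes only, fits of 2 groups with and without the letters A to C as a block, and leaving out each library. Deviations of same-letter libraries from their group means had correlations from -0.02 to 0.03. Replicate inputs differed little beyond counting error, so this check cannot show whether the letters pair libraries. Genes named in the text were mainly the 12 highest in the WAGO-1 IP, the largest and smallest IP ratios, those at the thresholds, up to 6 per direction and test with the largest fold among called genes without overlap, and the chromosome cluster. The part of that rule on related proteins was not applied, since protein sequences were not used here. Genes outside it were named after their values were seen. The members and lists were chosen with earlier results of these data known.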

Additional observations from a re-analysis of the deposited data

How the results depend on the processing

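The count of genes lower in the deletion input than in the WAGO-1 input stayed near 86 under the alternatives run, at 84 with DESeq2, 84 with total counts and 84 to 86 without 1 library at a time, and none was higher. For the deletion input against the WAGO-3 input, leaving out 1 library gave 49 to 54 lower and 0 higher, and DESeq2 gave 56 lower. The number called higher there went from 0 to 4 with total counts and to 4 with TMM factors over 1032 well covered features, an alternative chosen after seeing the data. For the WAGO-3 input against the WAGO-1 input, leaving out 1 library gave 21 to 22 higher and 51 to 53 lower. For the WAGO-3 IP against its input it gave 82 to 84 higher and 0 lower, whereas total counts gave 48 higher and 5 lower, and the well covered features 45 and 5. In that contrast C46G7.5 turned from 1.38 to -0.26 with total counts and -0.34 with the well covered features, and F53G12.8 from 1.09 to -0.55 and -0.63. Scaling by TMM in the rule gave 247 genes. These changes follow the scaling by construction. A fit of 2 groups at a time tested fewer of the genes, 66 for the deletion against the WAGO-1 input. All 66 were lower both with the replicate letters as a block and without it. The filter on low counts left 2862 features there. The median level of the genes described here was 192 CPM in the WAGO-1 input and 22.4 CPM in the deletion input. The 66 thus passed that filter mainly through the WAGO-1 input, where they were high. The share of all features lower in that fit is not given, so the count shows only that the block changed no call. The block gave the same counts of calls in the other 3 tests too. Leaving out 1 library ended calls of 9 named genes, among them Y71F9B.13 and ZC190.10. The depth of the deletion inputs, at most 121874 counts, limits all values there.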

Other observations

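Genes beside K08D12.4 on chromosome IV did not move together. rpi-2 (1711262 to 1714897), which also passed both thresholds of the choice but has a name, was at a mean of 235 CPM in the WAGO-1 input, 16.9 CPM in the deletion input and 1165 CPM in the WAGO-3 input (deletion against WAGO-1 input, log2 fold -4.33, edgeR adjusted p = 7.33e-22). epic-2 (1720790 to 1723072) passed them as well, at 260 CPM, 55.8 CPM and 44.95 CPM (log2 fold -2.92, edgeR adjusted p = 1.27e-18). Between K08D12.4 and rpi-2 lies pbs-1 (1708803 to 1709745), which encodes a proteasome subunit and was higher in the deletion input, at 150 CPM against 40.3 CPM (log2 fold 1.06, edgeR adjusted p = 0.00494). K08D12.3, next to it, was at 149 CPM against 47.1 CPM and was not called (log2 fold 0.76, edgeR adjusted p = 0.0538).

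Around C16C8.20 on chromosome II the 4 entries lower in the deletion input all lay in the span of gldi-6 (3446947 to 3452412), namely gldi-6 itself (log2 fold -2.58, edgeR adjusted p = 0.0167), C16C8.14 (-4.25, adjusted p = 2.53e-08), C16C8.20 and C16C8.21. C16C8.11 outside it was at 95.5 CPM in the deletion input and 31.0 CPM in the WAGO-1 input and was not called (edgeR adjusted p = 0.0763). In the WAGO-1 input gldi-6, C16C8.20 and C16C8.21 stood at 21.7, 215 and 629 CPM. How reads were assigned among these overlapping entries was not given, so their counts are uncertain. These neighbourhoods were chosen after their values were seen.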
